A study of Mus musculus with 30 samples.

Results

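The genes described here are Fn1, Tgfbi, Lgals3, F13a1, Serpine2 and Thbs1, 6 of the 11383 genes of a sequencing study of mouse bone marrow progenitors. They were picked by name as monocyte matrix and coagulation genes, with their levels in the naive groups known. Those levels, and counts past thresholds between naive groups, are therefore given as a description. No test between naive groups is read as a result for these 6 genes. Cells were sorted from the marrow of wild-type mice and fall into 10 groups, each with 3 RNA libraries (30 in all). The 6 naive groups are GMP (granulocyte-monocyte progenitors), MDP (monocyte-dendritic cell progenitors), cMoP (common monocyte progenitors), proNeu1 and proNeu2 (successive neutrophil progenitors), and GMP-MoP, in which the title of the series places features of both neutrophil and monocyte progenitors. The 4 LPS groups are GMP, GMP-MoP, proNeu1 and proNeu2 of mice 2 days after lipopolysaccharide (LPS), a component of the bacterial outer membrane, at a dose and by a route not given in the sources used here. All groups share the wild-type genotype, and each library is labelled a biological replicate, without saying whether it holds 1 animal or a pool, so p-values measure the spread between these libraries.

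Fibronectin, transforming growth factor beta induced protein and thrombospondin-1, made from Fn1, Tgfbi and Thbs1, are secreted glycoproteins that bind integrins and other matrix molecules on cells. Galectin-3, from Lgals3, is a lectin that binds galactose-containing sugars and is abundant in macrophages. F13a1 codes for the catalytic A subunit of coagulation factor XIII, a transglutaminase that crosslinks fibrin and is also carried by monocytes and macrophages, and Serpine2 codes for protease nexin-1, a secreted inhibitor of thrombin, urokinase and other serine proteases.

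On build GRCm38, Fn1 lies on the minus strand of chromosome 1 (71585520 to 71653200), and Serpine2 on the same strand of the same chromosome (79794197 to 79861180). Tgfbi lies on the plus strand of chromosome 13 (56609523 to 56639562), and F13a1 on the minus strand there (36867178 to 37050244). Lgals3 lies on the plus strand of chromosome 14 (47367751 to 47386160), and Thbs1 on the plus strand of chromosome 2 (118111876 to 118127133). All are annotated as protein coding. Fn1, F13a1 and Thbs1 overlap annotated genes on the other strand that have no row in the table. The library kit marks strand, but whether the counting used it is not given in the sources used here, so reads of such neighbours cannot be told apart from theirs.

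The 250 bases before the RefSeq start are shown for 3 genes that were highest in cMoP and for Serpine2, which was not, to set their sequence beside their opposite levels. They come from RefSeq (GRCm38.p6), are written 5′ to 3′ on the strand of the gene, and carry in capitals each match to a searched motif on either strand. The TATA box was searched as TATAAA. The Sp1 motif was searched as GGGCGG, and reads CCGCCC where it lies on the other strand. For the myeloid factor PU.1 the core GAGGAA was used. The motif of AP-1, the Fos and Jun dimer, was taken as TGANTCA. The CCAAT box was taken by its name and reads ATTGG on the other strand. For the C/EBP factors TTNCGNAA was used, and the CArG box of serum response factor was searched as well. F13a1 has a second RefSeq start, before which no motif matched. Fn1 and Thbs1 had no entry.
Tgfbi, chr13:56609336-56609585, plus strand: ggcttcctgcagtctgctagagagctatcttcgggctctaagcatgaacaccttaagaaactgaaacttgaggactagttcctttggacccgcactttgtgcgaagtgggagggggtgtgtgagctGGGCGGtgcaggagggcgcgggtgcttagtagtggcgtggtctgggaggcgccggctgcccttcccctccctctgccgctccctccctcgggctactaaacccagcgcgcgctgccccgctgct
Lgals3, chr14:47373610-47373859, plus strand: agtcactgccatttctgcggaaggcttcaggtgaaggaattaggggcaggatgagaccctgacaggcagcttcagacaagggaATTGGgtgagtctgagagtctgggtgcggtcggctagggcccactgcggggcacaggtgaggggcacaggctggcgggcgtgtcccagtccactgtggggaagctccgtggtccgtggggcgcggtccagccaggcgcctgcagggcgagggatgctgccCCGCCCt
F13a1, chr13:37050245-37050494, minus strand: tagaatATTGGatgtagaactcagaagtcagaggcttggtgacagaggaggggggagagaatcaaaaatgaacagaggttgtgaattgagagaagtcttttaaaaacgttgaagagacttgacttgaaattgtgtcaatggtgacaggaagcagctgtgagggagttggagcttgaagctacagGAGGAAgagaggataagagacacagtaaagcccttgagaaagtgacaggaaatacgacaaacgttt
Serpine2, chr1:79858666-79858915, minus strand: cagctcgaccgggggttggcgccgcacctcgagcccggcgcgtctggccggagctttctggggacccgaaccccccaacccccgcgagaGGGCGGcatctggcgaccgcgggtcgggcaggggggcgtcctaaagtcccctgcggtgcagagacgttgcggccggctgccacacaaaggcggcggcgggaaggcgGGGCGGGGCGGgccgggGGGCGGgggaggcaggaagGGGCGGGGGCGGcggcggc

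The 4 promoters differed in composition, and no motif was found in all of them. GC content was 42.8% for F13a1, 62.4% for Tgfbi, 66.0% for Lgals3 and 78.8% for Serpine2, against a median of 52.4% over 32851 promoters of the same length. The F13a1 stretch held 3 CpG pairs and the Serpine2 stretch 34. The Sp1 motif matched 6 times in Serpine2, where matches overlap, and 1 time each in Tgfbi and Lgals3, and was present in 32.7% of all promoters. F13a1 held the PU.1 core, present in 23.3% of all promoters. It shared the CCAAT box, present in 33.8%, with Lgals3. The TATA box, the AP-1 motif, the C/EBP motif and the CArG box, present in 12.4%, 6.75%, 2.04% and 1.47% of promoters, had no match in these 4 windows.

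Values are FPKM, fragments per kilobase of exon scaled to the assigned reads of each library, a level per length that allows genes to be set side by side. Libraries held 23.6 to 41.3 M assigned reads (median 28.6 M). The sorted populations were checked against lineage markers: the summed FPKM of 15 measured monocyte markers was highest in naive cMoP (4579 to 4666) and that of 18 neutrophil granule markers in LPS proNeu2 (80824 to 89808). The monocyte sum did not separate monocyte from neutrophil progenitors. It was 2952 to 3289 in naive proNeu1 and 3360 to 4340 in LPS proNeu2, against 2718 to 3204 in naive GMP-MoP and 1200 to 1268 in naive MDP. The label of the gene group describes 4 of its members in the naive levels, which were known when the genes were chosen. Fn1, Tgfbi, Lgals3 and F13a1 had their highest mean in naive cMoP, above every library of every other group, whereas Serpine2 and Thbs1 were near their lowest there. Since these are bulk samples, a lower level through fewer expressing cells and through less RNA per cell cannot be told apart.

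**Figure D1:**
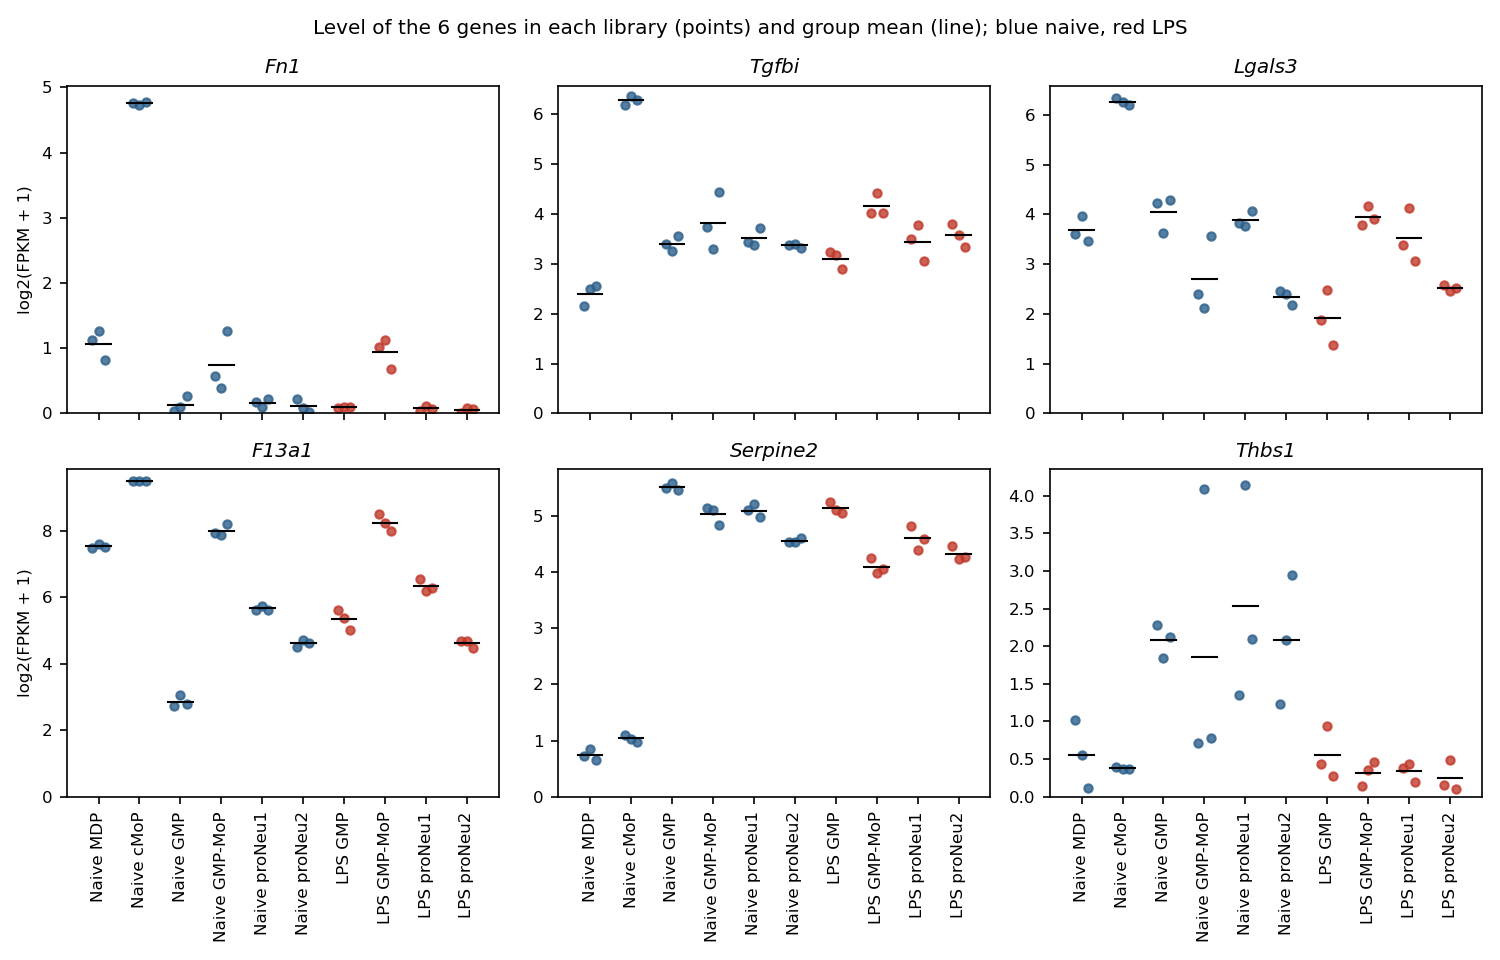
Level of each gene as log2(FPKM + 1) in all 30 libraries (points, 3 per group) with the group mean (line), naive groups in blue and LPS groups in red. Fn1, Tgfbi, Lgals3 and F13a1 peak in naive cMoP, Serpine2 is near 1 FPKM in cMoP and MDP and over 14 FPKM in every other library, and Thbs1 scatters widely among naive GMP-MoP and proNeu1 libraries.

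Fn1 was high in naive cMoP and low in the other 9 groups. Its level was 26.2, 25.4 and 26.5 FPKM in naive cMoP. The next group, naive MDP, had 1.18, 1.39 and 0.768 FPKM, so the cMoP mean was 23.4 times the MDP mean. All cMoP libraries stood far above all others, and they differed among themselves by little (SD 0.610, n = 3). GMP-MoP came next, with 1.03, 1.19 and 0.598 FPKM after LPS and 0.483, 0.303 and 1.40 FPKM in the naive state. These 3 groups overlapped. In GMP, proNeu1 and proNeu2, naive or LPS, no library exceeded 0.200 FPKM, which stood for 40 reads, and 1 LPS proNeu2 library had no Fn1 read. A count of 0 allows up to 3 reads, or 0.0143 FPKM in that library, and counting error only is covered.

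Tgfbi had the same peak on a broader base. It stood at 72.1, 80.9 and 77.3 FPKM in naive cMoP, a mean 4.53 times that of the next group, LPS GMP-MoP (15.3, 20.4 and 15.1 FPKM). Naive GMP-MoP had 12.4, 8.86 and 20.6 FPKM, and its range overlapped that of LPS GMP-MoP. From there down to naive proNeu2 (9.32 ± 0.299 FPKM, SD, n = 3) each group overlapped its neighbour in the order of means. Naive MDP was lowest, at 3.45 to 4.86 FPKM, below every library of every other group. The cMoP mean was 17.8 times the MDP mean.

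Lgals3 in naive cMoP stood at 79.6, 75.7 and 72.8 FPKM. The next group was naive GMP, at 17.7, 11.3 and 18.5 FPKM, and the cMoP mean was 4.81 times its mean. All cMoP libraries were above all others. Naive proNeu1 had 13.1, 12.6 and 15.8 FPKM and naive MDP 11.1, 14.6 and 10.1 FPKM. Naive GMP-MoP was lower, at 4.29, 3.33 and 10.8 FPKM, below all libraries of naive GMP and naive proNeu1. Naive proNeu2 had 4.49, 4.26 and 3.54 FPKM.

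F13a1 was by far the most abundant of the 6. It reached 714, 726 and 715 FPKM in naive cMoP, which gave it rank 76 among all genes of the table. Naive GMP-MoP had 245, 232 and 291 FPKM and naive MDP 178, 193 and 181 FPKM. These 3 groups did not overlap. The neutrophil progenitors were lower, with 48.1, 52.5 and 48.5 FPKM in naive proNeu1 and 21.7, 25.3 and 23.7 FPKM in naive proNeu2. Naive GMP was the lowest group at 5.59, 7.39 and 5.93 FPKM, so naive GMP-MoP stood 40.6 times above it in mean level.

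Serpine2 ran the other way. Naive GMP had 44.4, 46.9 and 43.0 FPKM, naive proNeu1 33.3, 35.9 and 30.5 FPKM, and naive GMP-MoP 34.1, 33.5 and 27.7 FPKM. Naive proNeu2 had 22.1, 22.3 and 23.3 FPKM. Naive cMoP had only 1.15, 1.05 and 0.969 FPKM, and naive MDP 0.655, 0.806 and 0.575 FPKM. The 2 monocyte-side populations were below every other library, and naive GMP-MoP overlapped naive proNeu1, with a mean 30.1 times that of cMoP. In this gene GMP-MoP thus had the level of the GMP and neutrophil side, while its F13a1 level lay between cMoP and MDP.

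Thbs1 was low in every group and uneven among replicates. Naive GMP had 3.85, 2.60 and 3.37 FPKM. Naive GMP-MoP had 0.639, 16 and 0.710 FPKM, naive proNeu1 1.55, 16.7 and 3.27 FPKM, and naive proNeu2 1.34, 3.24 and 6.73 FPKM. In GMP-MoP and proNeu1 the library numbered 2 carried most of the group mean, and in proNeu2 the library numbered 3 was highest. Naive cMoP had 0.311, 0.293 and 0.292 FPKM and naive MDP 1.02, 0.463 and 0.0815 FPKM. The cMoP libraries were below all libraries of naive GMP, GMP-MoP, proNeu1 and proNeu2.

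The libraries with the highest Thbs1 in naive GMP-MoP and naive proNeu1 were also high in immediate early genes, the transcription factors and phosphatases that cells induce within minutes of stimulation. That list of 24 genes, 15 of them measured, was drawn up after the Thbs1 values were seen. In naive GMP-MoP library 2, 13 of the 15 were the highest of the 3 libraries, and their summed level was 506 FPKM against 244 and 245 FPKM. In naive proNeu1 library 2, 11 of 15 were highest, with a sum of 342 FPKM against 254 and 261 FPKM. In naive proNeu2 library 3, 9 of 15 were highest, but its sum of 233 FPKM lay between the 226 and 236 FPKM of the others. In the other 7 groups the library highest in Thbs1 was the highest for 2 to 6 of the 15. These include naive MDP and LPS proNeu2, whose Thbs1 values were also uneven (coefficients of variation 90.4% and 93.5%) and where 3 and 2 of 15 were highest. Fos, an AP-1 subunit, was 54.4 FPKM in GMP-MoP library 2 against 5.04 and 4.09 FPKM, and 20.7 FPKM in proNeu1 library 2 against 4.14 and 3.23 FPKM. Jun, its partner, was 58.6 FPKM against 0.887 and 1.29 FPKM in GMP-MoP, and 26.6 FPKM against 0.729 and 0.374 FPKM in proNeu1. The part of the immediate early genes in the Thbs1 values was not tested, and the share of all genes highest in these libraries was not counted. Over all genes the number 2 libraries of naive GMP-MoP and naive proNeu1 deviated together from their group means (correlation 0.375). They are therefore not taken as 2 separate cases, and the labels do not say what they share.

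**Figure D2:**
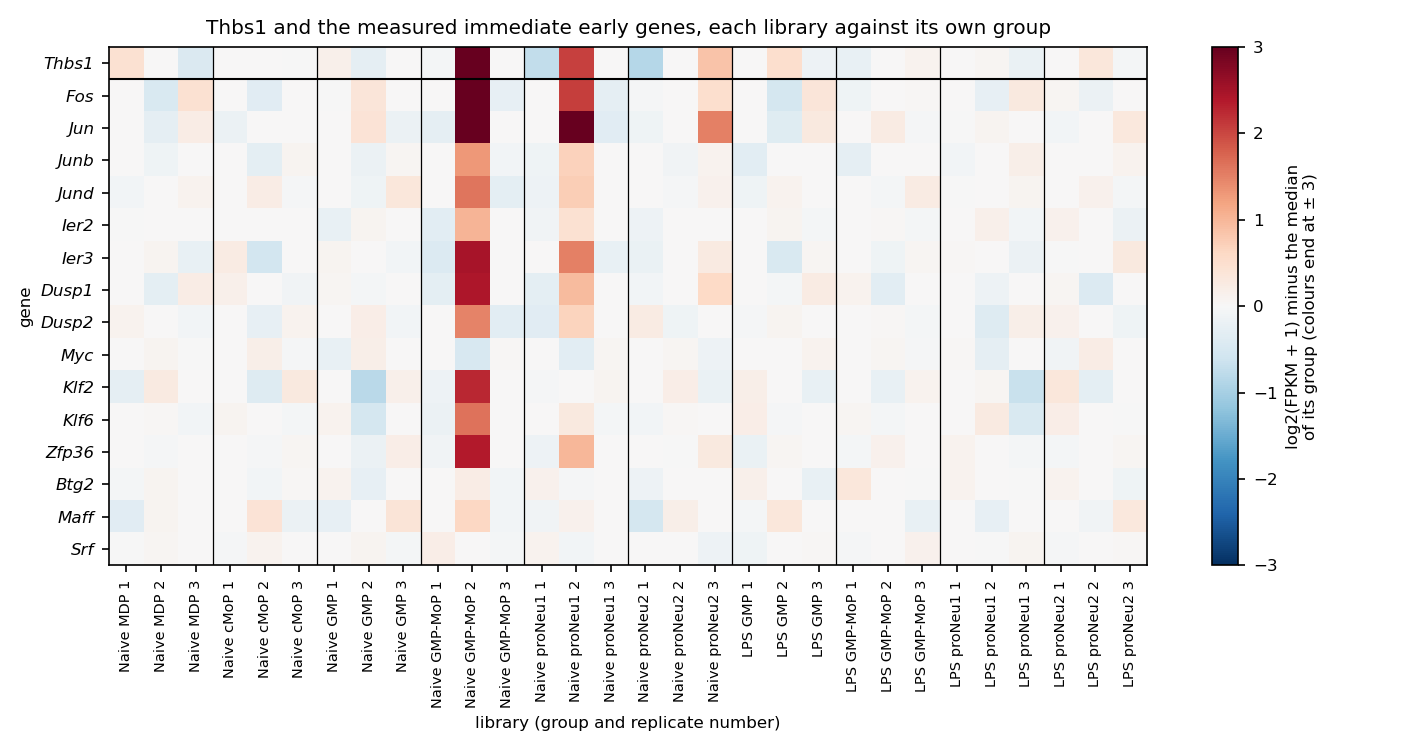
Thbs1 (top row) and the 15 measured immediate early genes, as log2(FPKM + 1) of each library minus the median of its own group of 3, red higher and blue lower. The columns of naive GMP-MoP library 2 and naive proNeu1 library 2 are red for Thbs1 and for 13 and 11 of the 15 genes.

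Naive GMP-MoP was uneven in the 4 cMoP-high genes as well, through another library. Library 3 was the highest of its group for Fn1, Tgfbi, Lgals3 and F13a1, and the lowest for Serpine2. In it 13 of the 15 measured monocyte markers were also highest, and their summed level was 3204 FPKM against 2718 and 2958 FPKM. The share of all genes highest in naive library 3 was not counted. In LPS GMP-MoP, library 1 was highest for 10 of the 15 markers but for 1 of the 4 genes. Library 2 there was highest for 5 markers and for 3 of the genes. The part of these markers in the values was not tested. Without naive GMP-MoP library 3 the log2 difference of Fn1 between naive GMP-MoP and naive GMP went from 0.61 to 0.34, and that of Tgfbi from 0.42 to 0.12.

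Counts of the 6 genes past the thresholds used throughout, a Benjamini-Hochberg adjusted p under 0.05 from limma over all 11383 genes and a fold of at least 2 on the log2(FPKM + 1) scale, describe the same naive levels. Between naive cMoP and MDP 4 were higher in cMoP and none lower, where 7.54% of all genes were called. Between cMoP and proNeu1 4 were higher and 2 lower, where 12.5% of all genes were called. Between GMP-MoP and cMoP 1 was higher in GMP-MoP and 4 lower, where 4.60% of all genes were called. Between GMP-MoP and GMP F13a1 was higher and Lgals3 lower, with 8.55% of all genes called, and the same held between GMP-MoP and proNeu1, with 5.70% called. Without naive GMP-MoP library 2 the log2 difference of Lgals3 from proNeu1 was -0.90, under the fold threshold, in place of -1.19. The genes were chosen with these levels known, so the counts are a description, and nothing is read from their size beside the shares of all genes.

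Across the means of the 10 groups the levels of Fn1 correlated with those of Tgfbi (Pearson r 0.85), Lgals3 (0.82) and F13a1 (0.72), and inversely with those of Serpine2 (-0.74). The r of Thbs1 was 0.49 with Serpine2 and -0.43 with F13a1. These are descriptions on the log2(FPKM + 1) scale over 10 groups that include naive and LPS samples of the same populations, and cMoP stands far from the other groups in 4 of the genes. Among 7154 genes with a group mean of at least 10 FPKM, the nearest in pattern to F13a1 were Bid (r 0.969), Clta (0.963) and Vav3 (0.948), and to Fn1 were Tmem178 (0.962), Patl1 (0.945) and Stxbp6 (0.935). For Tgfbi they were Rassf3 (0.967), Borcs6 (0.957) and Dpy19l4 (0.925), and for Lgals3 Degs1 (0.904), Capg (0.860) and Btg1 (0.848). All of these were highest in naive cMoP. For Serpine2 they were Spry2 (0.967), Hdc (0.963), which codes for the histamine-forming enzyme, and Rnf125 (0.960), all highest in naive GMP. For Thbs1, searched among 7155 genes, they were Upf3b (0.919), Ddx50 (0.905) and Sprtn (0.883), and the r of Sprtn over the 30 libraries was 0.355.

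Whether 2 days of LPS changed these genes was tested within GMP, GMP-MoP, proNeu1 and proNeu2, against the naive libraries of the same population. The naive levels, which enter each of these tests and each difference of effects, were known when the genes were chosen. The tests are therefore not independent of that choice. The 6 genes did not respond as a group. In GMP, F13a1 rose and Lgals3 fell. In GMP-MoP, Lgals3 rose. Thbs1 had a lower mean in all 4 populations and was called in 3, and each of these calls was lost without some single library. Fn1 and Tgfbi passed in none of the 4, and Serpine2 had a lower mean in all 4, by less than a fold of 2.

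**Figure D3:**
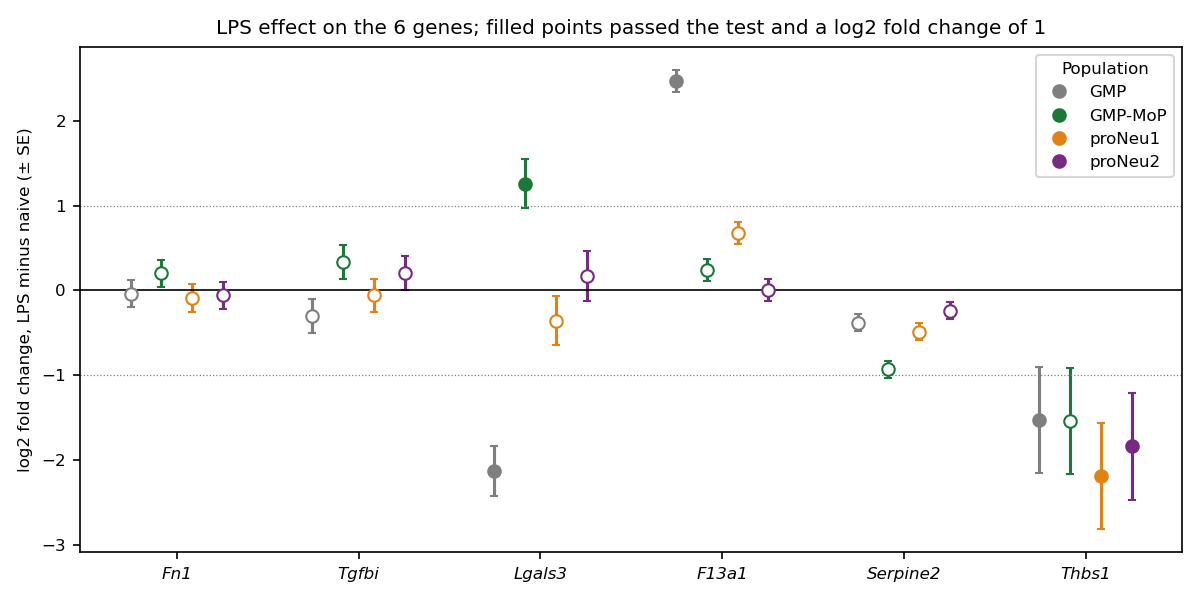
Log2 fold change on the log2(FPKM + 1) scale, LPS minus naive, with its standard error, for the 6 genes in GMP, GMP-MoP, proNeu1 and proNeu2 (3 libraries per group). Filled points have an adjusted p under 0.05 and a fold of at least 2, and dotted lines mark that fold; Lgals3 lies at -2.13 in GMP and at 1.26 in GMP-MoP, and F13a1 at 2.47 in GMP.

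F13a1 in GMP went from 5.59, 7.39 and 5.93 FPKM in naive libraries to 48.3, 40.3 and 31.3 FPKM after LPS. The groups were far apart, and all LPS libraries were higher. The log2 fold change was 2.47 ± 0.13 (SE), with an adjusted p of 3.68e-13 from limma. In proNeu1 the LPS libraries had 93.4, 72.2 and 76.5 FPKM, above the naive 48.1 to 52.5 FPKM without overlap, a log2 difference of 0.68 ± 0.13 (limma adjusted p 4.16e-04) that was under the fold threshold. In GMP-MoP the LPS libraries had 358, 299 and 255 FPKM and overlapped the naive ones (0.24 ± 0.13, limma adjusted p 0.163). In proNeu2 both groups had a mean of 23.6 FPKM. The LPS effect in GMP-MoP minus that in GMP was -2.23 on the log2 scale (SE 0.18, limma adjusted p for the difference 4.21e-09).

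Lgals3 moved in opposite directions in GMP and GMP-MoP. In GMP it went from 17.7, 11.3 and 18.5 FPKM to 2.67, 4.58 and 1.60 FPKM, with every LPS library below every naive one. The log2 fold change was -2.13 ± 0.29 (SE, limma adjusted p 2.20e-06). In GMP-MoP it went from 4.29, 3.33 and 10.8 FPKM to 12.8, 16.9 and 14.1 FPKM, again without overlap. The log2 fold change was 1.26 ± 0.29 (SE, limma adjusted p 0.00197). The call in GMP-MoP was lost without naive library 2 (log2 fold change 0.97) and, at an adjusted p of 0.0501, when only these groups entered the fit. The difference between both effects was 3.39 ± 0.41 (SE, limma adjusted p 1.50e-06). In proNeu1 the LPS libraries had 9.47, 16.4 and 7.34 FPKM and overlapped the naive ones, as did those of proNeu2 at 5.02, 4.47 and 4.70 FPKM.

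The GMP libraries differed in markers of several cell types, in both directions. A list of basophil, eosinophil and mast cell genes, 14 of them measured, summed to 18780 to 20768 FPKM in naive GMP and 7647 to 9240 FPKM after LPS. That of 10 megakaryocyte and platelet genes was 443 to 501 FPKM and 66.7 to 85.4 FPKM, and that of 13 macrophage markers 368 to 441 FPKM and 90 to 125 FPKM. The neutrophil granule markers were higher after LPS, with sums of 5465 to 8898 FPKM in naive and 12710 to 15314 FPKM in LPS GMP, and 6 of the 18 had every LPS library above every naive one. The monocyte marker sums overlapped (medians 418 FPKM naive and 514 FPKM after LPS), with 3 of 15 markers above and 5 below the naive range in all LPS libraries. The 3 above were Ly6c2, Cd14 and Ccl9, and the 5 below were Irf8, Klf4, Cx3cr1, Ly86 and Ctss. Irf8, a transcription factor of monocyte progenitors, had a mean of 54.8 FPKM in naive and 13.7 FPKM in LPS GMP. No marker of these lists was at 0 in all libraries of either GMP group. In cMoP, where F13a1 was highest, the megakaryocyte and platelet markers summed to 6.78 to 7.82 FPKM and 4 of the 10 were at 0. In GMP-MoP the same list summed to 5.07 to 7.35 FPKM in naive libraries and to 8.15 to 10.9 FPKM after LPS. In GMP-MoP the monocyte marker sums were 2718 to 3204 FPKM in naive and 3144 to 3804 FPKM in LPS libraries, and 6 of 15 markers had all LPS libraries above all naive ones and none had them below. Among the 6 were Klf4, a monocyte transcription factor (9.90 to 16.4 FPKM naive, 21.2 to 28.5 FPKM LPS), and Ccr2, a monocyte chemokine receptor (18.3 to 30.6 and 40.9 to 53.7 FPKM). Of the 18 neutrophil granule markers, 6 had all LPS GMP-MoP libraries above all naive ones and 2 had them below. In proNeu1 and in proNeu2, 5 of the 15 monocyte markers were above in this way and none below. The share of all genes with LPS and naive libraries apart in this way was not counted. The marker counts therefore have no reference beside them. Over all 11383 genes, 6262 had an unadjusted limma p under 0.05 for LPS against naive in GMP, and 4715 in GMP-MoP. The part of these marker differences in the GMP results and in the Lgals3 rise in GMP-MoP was not tested.

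Serpine2 had a lower mean after LPS in each population. In GMP-MoP it went from 34.1, 33.5 and 27.7 FPKM to 18, 14.8 and 15.6 FPKM, without overlap, a log2 difference of -0.93 ± 0.10 (SE, limma adjusted p 2.47e-07) just under the fold threshold. It passed that threshold without naive library 3 (-1.03) or LPS library 1 (-1.01). In GMP the LPS libraries had 37.1, 33.3 and 32.1 FPKM, below all naive ones, with a log2 difference of -0.38 ± 0.10 (limma adjusted p 0.00221). In proNeu1 they had 27.4, 20.1 and 23 FPKM, also below all naive ones (-0.49 ± 0.10, limma adjusted p 6.12e-04). In proNeu2 they had 21, 17.9 and 18.2 FPKM (-0.24 ± 0.10, limma adjusted p 0.0549). The effect in GMP-MoP minus that in GMP was -0.55 ± 0.14 (limma adjusted p 0.00408), under the fold threshold.

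Thbs1 after LPS was under 1 FPKM in all 12 libraries. In GMP it was 0.349, 0.926 and 0.207 FPKM against 2.60 to 3.85 FPKM in naive libraries, a log2 fold change of -1.53 ± 0.63 (SE, limma adjusted p 0.0469). In proNeu1 it was 0.305, 0.357 and 0.140 FPKM (-2.19 ± 0.63, limma adjusted p 0.0114), and in proNeu2 0.111, 0.408 and 0.0715 FPKM (-1.84 ± 0.63, limma adjusted p 0.0245). In GMP-MoP it was 0.103, 0.277 and 0.376 FPKM (-1.54 ± 0.63, limma adjusted p 0.0661). No LPS library overlapped the naive libraries of its population. The call in proNeu1 was lost without naive library 2, which was high in immediate early genes (-1.38, limma adjusted p 0.104). The call in GMP was lost without any 1 of its 6 libraries (limma adjusted p 0.0551 to 0.124), while the log2 fold change stayed between -1.73 and -1.40. The call in proNeu2 was lost without naive library 2 or 3 or LPS library 1 or 3 (limma adjusted p 0.0523 to 0.121), at log2 fold changes of -1.84 to -1.41. The log2 difference in GMP-MoP was -0.43 without naive library 2.

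Fn1 and Tgfbi gave no call. Fn1 in GMP-MoP had a log2 difference of 0.20 ± 0.16 (SE, limma adjusted p 0.344) and Tgfbi of 0.33 ± 0.20 (limma adjusted p 0.231). In GMP, Tgfbi was 8.40, 8.01 and 6.49 FPKM after LPS, below all naive libraries (8.58 to 10.7 FPKM), with a log2 difference of -0.30 ± 0.20 (limma adjusted p 0.227). The counts of called genes that follow rest in part on the naive levels known at the choice. Nothing is read from their size beside the shares of all genes. Against the whole table, 3 of the 6 genes were called in GMP (1 higher, 2 lower), where 3.95% of all genes were. In proNeu1 and proNeu2 1 each was called, Thbs1, where 1.47% and 0.993% of all genes were. In GMP-MoP 1 was called, Lgals3, where 1.13% of all genes were. In the difference of effects between GMP-MoP and GMP 2 of 6 were called, with 3.92% of all genes. No member was called in the difference between GMP-MoP and proNeu1 (0.220% of all genes), where Lgals3 had 1.62 ± 0.41 (limma adjusted p 0.0885), nor between proNeu2 and proNeu1 (0.158% of all genes), and at an unadjusted p under 0.05 these 2 comparisons held 865 and 1043 genes in all. The Lgals3 difference between GMP-MoP and proNeu1 was called without naive GMP-MoP library 3 (2.06, limma adjusted p 0.00343) or without LPS proNeu1 library 2 (1.92, limma adjusted p 0.02).

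Among the LPS libraries, GMP-MoP was set against GMP and against proNeu1. The contrast of these populations in the naive state was known when the genes were chosen, so a like contrast here is not independent of it. GMP-MoP had higher F13a1, Tgfbi and Lgals3 and lower Serpine2 than GMP, and higher F13a1 than proNeu1. F13a1 was 304 ± 51.7 FPKM in LPS GMP-MoP against 40.0 ± 8.47 FPKM in LPS GMP (SD, n = 3), a log2 fold change of 2.90 ± 0.13 (SE, limma adjusted p 2.85e-15). Against LPS proNeu1 (80.7 ± 11.2 FPKM) it was 1.90 ± 0.13 (limma adjusted p 1.26e-11). Lgals3 was 2.04 ± 0.29 above LPS GMP (limma adjusted p 3.19e-06) and overlapped LPS proNeu1. Tgfbi, at 15.3, 20.4 and 15.1 FPKM against 8.40, 8.01 and 6.49 FPKM, differed from LPS GMP by 1.05 ± 0.20 (limma adjusted p 1.79e-04), and fell under the fold threshold without LPS GMP library 3 (0.95) or LPS GMP-MoP library 2 (0.92).

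Serpine2 was 16.1 ± 1.65 FPKM in LPS GMP-MoP and 34.2 ± 2.63 FPKM in LPS GMP (SD, n = 3), a log2 fold change of -1.04 ± 0.10 (SE, limma adjusted p 3.12e-09). It was -0.98, under the fold threshold, with median-of-ratios scaling and without LPS GMP library 1 or LPS GMP-MoP library 2. Fn1 differed from LPS GMP by 0.85 ± 0.16 and from LPS proNeu1 by 0.86 ± 0.16 (limma adjusted p 1.18e-04 and 7.41e-05) and was not called. On recovered reads with voom its log2 fold changes were 3.77 and 4.15 and both were called. The added 1 FPKM is as large as the Fn1 level of LPS GMP-MoP (0.938 ± 0.305 FPKM, SD, n = 3). In all, 4 of the 6 genes were called against LPS GMP, where 5.58% of all genes were, and 1 against LPS proNeu1, where 6.16% of all genes were. Both comparisons share the LPS GMP-MoP libraries, and they share those with the comparison to naive GMP-MoP.

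Other coagulation and fibrinolysis genes were followed through a list of 51, of which 24 were measured beside F13a1 and Serpine2. This list and those below were chosen with earlier results of these data known. Their counts and p-values are therefore a description, not independent of those results. Like F13a1, most of those that differed between naive cMoP and MDP were higher in cMoP. There 9 were higher and 2 lower, where 7.54% of all genes were called. The median log2 fold change was 0.56 over the list and -0.07 over all genes. F10, coagulation factor X, was 29 FPKM in cMoP and 1.26 FPKM in MDP, a log2 fold change of 3.74 ± 0.11 (SE, limma adjusted p 2.77e-19). Plaur, the urokinase receptor, was 20 against 3.87 FPKM (2.10 ± 0.15, limma adjusted p 1.38e-11). Pros1, the anticoagulant protein S, was 13.5 against 2.89 FPKM (1.91 ± 0.14, limma adjusted p 1.43e-11). F2r, a thrombin receptor, was lower in cMoP at 0.0711 against 2.39 FPKM (-1.66 ± 0.14, limma adjusted p 5.38e-10). Unlike F13a1 and Pros1, F10 and Plaur were not highest in cMoP over the 10 groups. F10 was 43.2 FPKM in LPS GMP-MoP, and Plaur 33.3 FPKM in naive proNeu1.

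Against naive proNeu1, 5 of the 24 were higher in cMoP and 3 lower, where 12.5% of all genes were called. The list median was -0.15, against 0.07 over all genes. S100a10, a plasminogen-binding partner of annexin A2, was 276 FPKM in cMoP and 12.3 FPKM in proNeu1 (4.39 ± 0.16, limma adjusted p 1.11e-17). Pros1 was 13.5 against 0.841 FPKM (2.98 ± 0.14, limma adjusted p 1.13e-15). F5, coagulation factor V, was lower, at 1.97 against 15.8 FPKM (-2.50 ± 0.15, limma adjusted p 2.01e-13). Between naive GMP-MoP and cMoP 1 of 24 was higher and 3 lower, where 4.60% of all genes were called. The list median was -0.03, against 0.01 over all genes. S100a10 was 57.5 FPKM in GMP-MoP (-2.27 ± 0.16, limma adjusted p 2.53e-11), Pros1 4.10 FPKM (-1.53 ± 0.14, limma adjusted p 2.04e-09) and Anxa2, annexin A2, 90.1 against 259 FPKM (-1.52 ± 0.08, limma adjusted p 2.34e-13).

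**Figure D4:**
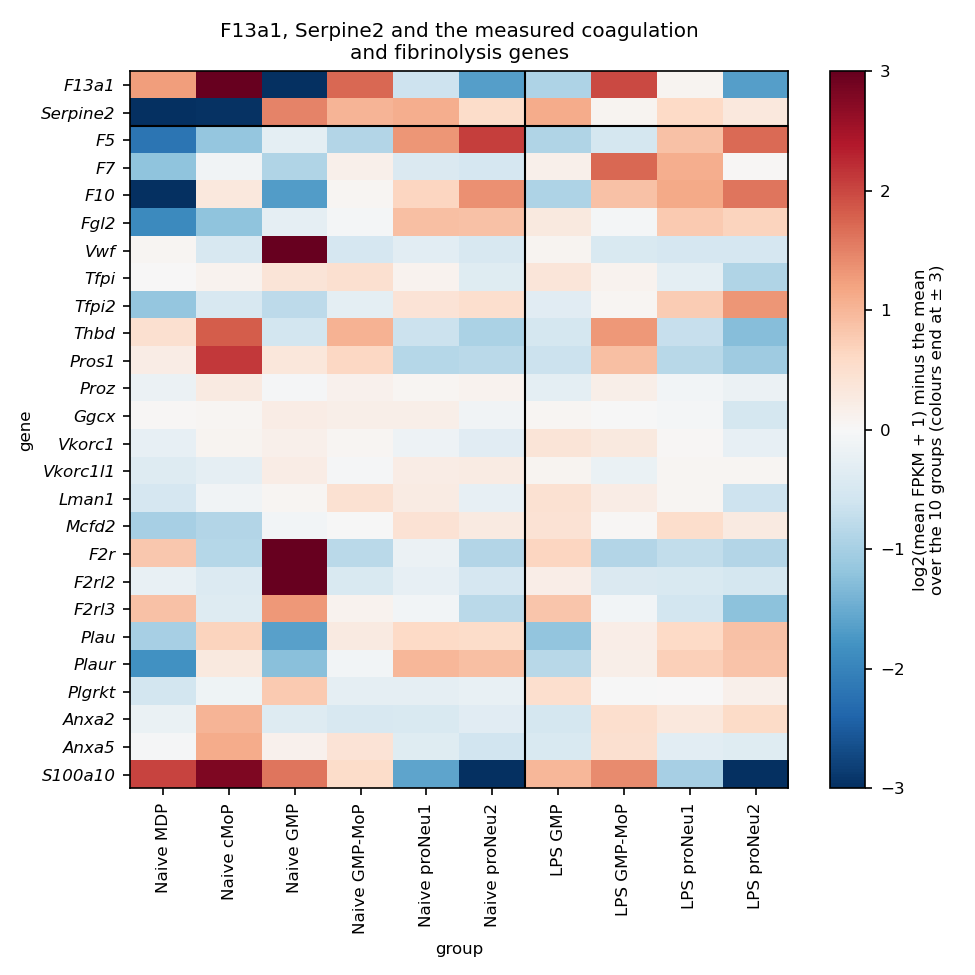
F13a1 and Serpine2 (top rows) and the 24 measured genes of the coagulation and fibrinolysis list in the 10 groups, as log2(mean FPKM + 1) minus the mean over groups, red higher and blue lower. F13a1, Thbd, Pros1, Anxa2, Anxa5 and S100a10 are reddest in naive cMoP, and Vwf, F2r and F2rl2 in naive GMP.

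After LPS, F7, coagulation factor VII, rose in 3 populations from a low level. It was 0.298 FPKM in naive and 1.66 FPKM in LPS GMP (1.04 ± 0.12, limma adjusted p 2.07e-07). In proNeu1 it was 0.779 and 4.10 FPKM (1.52 ± 0.12, limma adjusted p 1.08e-08), and in GMP-MoP 1.70 and 6.91 FPKM (1.55 ± 0.12, limma adjusted p 4.54e-09). It was the single called gene of the list in both proNeu1 and GMP-MoP, where 1.47% and 1.13% of all genes were called. None was called in proNeu2 (0.993% of all genes). In GMP, where 3.95% of all genes were called, F7 was the 1 called gene of the list that rose. In GMP 3 of 24 fell, F2r from 25.3 to 2.06 FPKM (-3.11 ± 0.14, limma adjusted p 3.57e-14), Vwf, von Willebrand factor, from 12.3 to 0.670 FPKM (-3.0 ± 0.11, limma adjusted p 8.71e-16), and the thrombin receptor family gene F2rl2 from 11.3 to 0.697 FPKM (-2.87 ± 0.15, limma adjusted p 6.62e-13). Vwf is also a gene of megakaryocytes, and their markers summed to less in the same LPS libraries (66.7 to 85.4 FPKM) than in the naive ones (443 to 501 FPKM). Their part in these falls was not tested. In LPS GMP-MoP 7 of the 24 exceeded LPS GMP and 1 was below it, where 5.58% of all genes were called. The 7 were led by Thbd, thrombomodulin (1.84 ± 0.15, limma adjusted p 2.44e-10), and F10 (1.83 ± 0.11, limma adjusted p 4.18e-13).

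The cell-surface partners of fibronectin and the other matrix proteins were followed in a list of 25 measured integrins and matrix receptors. Between naive cMoP and proNeu1 6 were higher and 4 lower, where 12.5% of all genes were called, and the list median was 0.27 (0.07 over all genes). Itgb2l, an integrin beta chain gene of neutrophils, was 66.2 FPKM in proNeu1 and at 0 in every cMoP library, and Itgam, the CD11b chain, was 24.6 FPKM in proNeu1 and 2.71 FPKM in cMoP (-2.79 ± 0.15, limma adjusted p 4.01e-14). Itgb7, the integrin beta 7 chain, was 75.1 FPKM in cMoP and 1.40 FPKM in proNeu1 (5.04 ± 0.23, limma adjusted p 1.13e-15), and Itga1, a collagen-binding integrin chain, 23.2 and 0.183 FPKM (4.36 ± 0.13, limma adjusted p 7.46e-19). Between naive GMP-MoP and cMoP none was higher and 4 lower (4.60% of all genes called, list median -0.26 against 0.01), led by Itgb7 at 3.32 FPKM in GMP-MoP (-4.22 ± 0.23, limma adjusted p 3.45e-13). In GMP 5 fell after LPS (3.95% of all genes called, list median -0.25 against -0.06), led by Itgb3, the beta 3 chain shared by platelet and vitronectin receptors, from 14.7 to 2.39 FPKM (-2.22 ± 0.14, limma adjusted p 1.40e-11), and Itgb7, from 46.6 to 12.9 FPKM (-1.74 ± 0.23, limma adjusted p 1.40e-06). Itgb3 is also on the megakaryocyte and platelet list, whose 10 measured genes all had every LPS GMP library below every naive one. The part of such cells in the Itgb3 fall was not tested. In GMP-MoP 1 rose (1.13% of all genes called, list median 0.03 against -0.04), Itgb7, from 3.32 to 8.41 FPKM (1.19 ± 0.23, limma adjusted p 3.98e-04). The difference between the LPS effects on Itgb7 in GMP-MoP and GMP was 2.94 ± 0.32 (limma adjusted p 4.29e-07).

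Of 14 other measured matrix genes, 2 rose in GMP-MoP after LPS, where 1.13% of all genes were called. Spp1, which codes for osteopontin, went from 1.89 to 7.82 FPKM (1.62 ± 0.22, limma adjusted p 8.54e-06), and Emilin2, an elastic fibre glycoprotein, from 8.12 to 22.6 FPKM (1.38 ± 0.17, limma adjusted p 3.17e-06). Emilin2 also rose in proNeu2, from 0.95 to 3.57 FPKM (1.22 ± 0.17, limma adjusted p 8.61e-06). Between naive cMoP and proNeu1 3 of the 14 were higher and 3 lower, where 12.5% of all genes were called. The list median was -0.39, against 0.07 over all genes. Emilin2 was 43.4 FPKM in cMoP against 3.35 FPKM in proNeu1 (3.36 ± 0.17, limma adjusted p 1.32e-14), but higher still in naive GMP, at 54.2 FPKM. Mfge8, a secreted integrin ligand that marks dying cells for uptake, was 18.7 FPKM in cMoP and 0.894 FPKM in proNeu1 (3.39 ± 0.11, limma adjusted p 2.53e-18). Lower in cMoP were Tinagl1, at 0.0235 against 5.89 FPKM (-2.75 ± 0.17, limma adjusted p 2.71e-13), Srgn, which codes for the granule proteoglycan serglycin, at 225 against 1126 FPKM (-2.32 ± 0.10, limma adjusted p 5.39e-16), and Crispld2 (-2.18 ± 0.17, limma adjusted p 3.41e-11).

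Other galectin and serpin genes were followed beside Lgals3 and Serpine2. Of 6 measured genes on the galectin list none was called after LPS in any of the 4 populations, where 0.993% to 3.95% of all genes were. The list includes Lgals3bp, which codes for a galectin-3 binding protein and not for a galectin. Lgals1 was 759 FPKM in naive cMoP, 353 FPKM in GMP-MoP and 99.3 FPKM in proNeu1 (cMoP against proNeu1 2.92 ± 0.12, limma adjusted p 1.10e-16), the same direction as Lgals3 in that comparison. Of 7 other serpins, Serpinb10 fell after LPS in GMP from 15.3 to 3.81 FPKM (-1.76 ± 0.29, limma adjusted p 2.97e-05) and in proNeu1 from 9.76 to 4.19 FPKM with overlapping libraries (-1.22 ± 0.29, limma adjusted p 0.00315). Serpinf1, pigment epithelium-derived factor, was 45.7 FPKM in naive cMoP and 2.45 FPKM in proNeu1 (3.76 ± 0.15, limma adjusted p 1.48e-16), opposite to Serpine2. Serpinb1a, an inhibitor of neutrophil elastase, was 80.5 and 451 FPKM (-2.47 ± 0.09, limma adjusted p 1.20e-17), the same direction as Serpine2.

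Among 14 matrix proteases and inhibitors, Hpse, the heparan sulfate cleaving enzyme heparanase, rose after LPS in proNeu1 from 5.09 to 11.9 FPKM (1.08 ± 0.10, limma adjusted p 6.75e-08) and in proNeu2 from 4.06 to 11.6 FPKM (1.31 ± 0.10, limma adjusted p 1.66e-09). It was 56.5 FPKM in naive cMoP, above proNeu1 by 3.24 ± 0.10 (limma adjusted p 6.64e-19). In that comparison 4 of the 14 were higher and 5 lower, where 12.5% of all genes were called. The gelatinase Mmp9, a neutrophil granule gene, was 10.5 FPKM in naive proNeu1 and 0.00683 FPKM in cMoP (-3.48 ± 0.40, limma adjusted p 5.65e-08), and Mmp25, a membrane-bound metalloprotease of neutrophils, was 9.35 and 0.0752 FPKM (-3.25 ± 0.21, limma adjusted p 1.59e-12). Of 23 TGF-beta pathway genes, 1 was called after LPS, the coreceptor gene Tgfbr3 in GMP, which fell from 7.10 to 2.50 FPKM (-1.20 ± 0.13, limma adjusted p 1.11e-07). Of 9 other crosslinking and collagen-modifying enzymes none was called after LPS in any population by limma. The share of all genes called after LPS was 3.95% in GMP, 1.47% in proNeu1, 1.13% in GMP-MoP and 0.993% in proNeu2.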

How the data were processed

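Per the submitters' processing notes, the authors used Trimmomatic 0.38.0, STAR 2.7.8 and featureCounts 2.0.1 with build GRCm38 (mm10); the annotation release and strand setting are not given in the sources used here. The table the authors deposited holds FPKM values for 11383 genes by symbol, and the lowest gene mean was 1.000, which leaves genes of lower mean level outside this account. Whole reads were recovered from the deposited FPKM values for all 11383 genes (within 0.02 reads, at most 0.1) with 1 exon length per gene and 1 total per library, against 0 of 200 genes with shuffled values.

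The members, lists and rules were chosen with earlier results of these data known. Each of 14 comparisons was tested with limma 3.58.1 under R 4.3.3, with a mean-variance trend, on values transformed as log2(FPKM + 1), the 30 libraries sharing 1 model. A call needed both an adjusted p below 0.05 (Benjamini-Hochberg, over all genes) and a log2 fold change of 1 or more, up or down. Fold changes on this scale understate changes of low genes. No low-value filter was used. Alternatives were voom on recovered reads, a filter (FPKM of at least 1 in 3 libraries), the compared groups alone, median-of-ratios scaling, a pseudocount of 0.1, a replicate block and each library left out; 2 more were added after seeing the data.

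Named genes were the 6 members, and for each the 3 genes nearest by Pearson r over group means. Genes among the 3 called ones of greatest change per list and comparison were named too. Irf8, Klf4, Ccr2, Fos and Jun were named after their values were seen, as were the other monocyte markers named for LPS in GMP. So were F2r in cMoP against MDP, and Itgam, Srgn and Crispld2 in cMoP against proNeu1. Overlap of groups means that ranges of libraries touch. Gene positions came from GENCODE M21, promoters from RefSeq. Same-numbered libraries deviated together in LPS GMP-MoP and LPS GMP (correlations 0.241 to 0.295) and in LPS GMP-MoP and LPS proNeu1 (0.156 to 0.263). The numbers may therefore pair those libraries, although the labels do not say what they share. The reported tests leave this pairing out, and it entered only the alternatives with a replicate block. Other steps ran in Python 3.11.15 (numpy 2.4.6, pandas 2.3.3, matplotlib 3.10.9). Limits taken from reads cover counting error only: with no molecular identifiers, several reads may stem from 1 molecule.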

Additional observations from a re-analysis of the deposited data

Results flagged for a closer look

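The LPS effects on Lgals3 in GMP-MoP and in GMP differed by a test of the difference itself, with a log2 difference of effects of 3.39 ± 0.41 (SE, limma adjusted p 1.50e-06). All 3 LPS libraries were above all naive ones in GMP-MoP and below all naive ones in GMP. The LPS effects on F13a1 in the same populations also differed, by -2.23 ± 0.18 (SE, limma adjusted p 4.21e-09), with a log2 fold change of 0.24 in GMP-MoP and 2.47 in GMP.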

How the results depend on the processing

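Of 54 tested results on the 6 genes, 54 kept direction and side of the threshold with the filter, which removed no gene, 53 with the replicate block, 52 with the compared groups alone, 51 with a pseudocount of 0.1, 51 with median-of-ratios scaling and 47 with voom on recovered reads. Scaling moved the median log2 fold change of all genes by at most 0.08. Genes called with a pseudocount of 0.1 and with voom numbered 845 and 849 for naive GMP-MoP against cMoP (524 as reported), 1016 and 1028 for naive GMP-MoP against proNeu1 (649), 730 and 786 for LPS in GMP (450), 359 and 369 in proNeu1 (167), 391 and 409 in proNeu2 (113), 317 and 320 in GMP-MoP (129), 960 and 990 for LPS GMP-MoP against GMP (635), and 1066 and 1118 against proNeu1 (701). With voom the differences of LPS effects gave 8 genes for GMP-MoP minus proNeu1 (25) and 4 for proNeu2 minus proNeu1 (18), the ranges without single libraries being 19 to 43 and 13 to 32. The added 1 FPKM holds down the fold change of low genes by construction; the cause of the other changes was not tested.

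The LPS effect on Thbs1 was not called with voom in GMP (-3.08, limma adjusted p 0.0612), proNeu1 (-4.08, 0.0541) or proNeu2 (-4.31, 0.0916), although these log2 fold changes exceeded the reported -1.53, -2.19 and -1.84. It was not called in GMP with scaling (-1.47, limma adjusted p 0.0573) or in proNeu1 with the compared groups alone (-2.19). Thus 0 of the 6 genes were called in proNeu1 with voom and with the compared groups alone, and 0 in proNeu2 with voom. In GMP-MoP 2 of the 6 were called with a pseudocount of 0.1 (Thbs1 -2.68, limma adjusted p 0.0290) and with the replicate block (Thbs1, 0.0484), and 0 with the compared groups alone or without the number 2 libraries of naive GMP-MoP and proNeu1, a choice made after seeing the data. Against LPS proNeu1 2 were called with the pseudocount of 0.1 and with voom, Fn1 being added (2.71 and 4.15). Without single libraries the number called of 6 ranged from 0 to 1 in proNeu1 and proNeu2, 0 to 3 in GMP-MoP, 2 to 4 for LPS GMP-MoP against GMP and 0 to 1 for GMP-MoP minus proNeu1. Signs turned, with no call, for Fn1 in proNeu2 minus proNeu1 (-0.18 with voom), F13a1 in proNeu2 (0.07 with scaling), and Thbs1 in GMP-MoP minus GMP (1.11 without the number 2 libraries) and proNeu2 minus proNeu1 (-0.23 with voom, -0.45 without the number 2 libraries). Without single libraries, signs turned within uncalled ranges: Fn1 in GMP -0.09 to 0.03 and in proNeu2 minus proNeu1 -0.02 to 0.08, Tgfbi in proNeu1 -0.24 to 0.13, F13a1 in proNeu2 -0.06 to 0.07, and Thbs1 in LPS GMP-MoP against proNeu1 -0.09 to 0.07, GMP-MoP minus GMP -0.58 to 1.11, GMP-MoP minus proNeu1 -0.16 to 1.77 and proNeu2 minus proNeu1 -0.45 to 0.94. The replicate block changed no other call, and a block within the LPS libraries, added after seeing the data, changed none of its 12. Same-numbered libraries of naive GMP-MoP and naive proNeu1 also deviated together, with correlations of 0.186, 0.375 and 0.0973 for numbers 1, 2 and 3. Those libraries may not be independent, and the labels do not say what they share. Elsewhere the correlations were -0.246 to 0.116, so the numbers there name libraries only.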
